A study of Mus musculus with 2 samples.

Results

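The forkhead transcription factor genes were taken as every gene of the deposited gene list whose symbol starts with Fox, a letter from a to s and a number, leaving out Foxd1 and antisense transcripts. This gave 43 of 32285 genes. The skin was from the back and flank of mouse embryos at E14.5, the embryonic day when hair placodes and the dermal condensates under them form. One 10x Chromium 3' library was made of Wntless mutant embryos, in which K14Cre, a recombinase under the keratin 14 promoter of the epidermis, was bred to a floxed Wntless allele (Wntless fl/fl). The other library was made of wildtype littermates, and each library pooled 2 to 3 embryos of its genotype. Wntless (Wls) carries Wnt proteins to the cell surface, so its loss keeps the epidermis from secreting them.

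Forkhead proteins bind DNA through a winged-helix domain and are named by subfamily. The FOXP factors act as dimers and mostly repress, the FOXO factors are kept out of the nucleus by AKT when growth factor signalling is high, and FOXM1 activates genes of the G2 and M phases. Several others mark or specify cell types, such as FOXD3 in neural crest, FOXC1 and FOXC2 in vessels and mesenchyme, FOXF and FOXL1 in mesenchyme next to Hedgehog-secreting epithelium, and FOXI3 in hair and tooth placodes.

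The 2 libraries held 10449 mutant and 9065 wildtype barcodes with a median of 14602 and 11341 UMIs (unique molecular identifiers, counts of captured RNA molecules), and 19 barcodes occurred in both. Dermal cells were those on the authors' lists, 5028 mutant and 5300 wildtype cells with a median of 15566 and 11154 UMIs. Epidermal cells were the keratinocyte-like cells of a joint clustering made without any forkhead gene, 160 mutant and 489 wildtype cells with a median of 23653.5 and 15072 UMIs. Levels are given as CPM, the UMIs of a gene per 1000000 UMIs of the class. In the epidermis Wls had 23 mutant UMIs (5.49 CPM) and 1055 wildtype UMIs (131 CPM), 23.9-fold lower in the mutant, and in the dermis 77.0 CPM in mutant cells and 91.8 CPM in wildtype cells. A cluster led by Gal, Sox18 and Sox2, called cluster 5 here, held 2 mutant and 1343 wildtype cells. Markers of other types in the dermal cells summed to 39.1 CPM in mutant against 46.2 CPM in wildtype cells for keratinocyte genes, and to 14.9 and 20.5 CPM for muscle genes. Collagen and haemoglobin genes, listed as sources of free RNA, summed to 17568 CPM in mutant and 11699 CPM in wildtype dermal cells. Dermal cells make collagen themselves, so this sum does not measure free RNA in them. The part of RNA from other cells in the results was not tested.

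With 1 library a genotype no test between genotypes was possible. Intervals, given in brackets as 95% intervals, cover counting error only and not the spread between embryos. A gene counted as measured with 20 or more UMIs over the classes compared, and as higher or lower from a 1.5-fold difference. This call used the ratio alone, so the interval of a called gene can include no difference. Over all barcodes, 6 of the 43 genes had no UMI (Foxa1, Foxe3, Foxi1, Foxi2, Foxn4 and Foxr2). Another 10 had fewer than 20 UMIs, among them Foxa3, Foxe1, Foxf2, Foxh1, Foxn1 and Foxp3, and 27 had 20 or more. All forkhead UMIs summed to 228 CPM in mutant cells and 229 CPM in wildtype cells over all barcodes. They were 223 CPM in mutant and 208 CPM in wildtype dermal cells, and 253 CPM in mutant and 319 CPM in wildtype epidermal cells.

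In the dermis, Foxp2 and Foxp1 were higher and Foxo6 was lower in the mutant, while most other measured members differed by less than 1.5-fold. Of the 43 genes 18 were measured, 13 had no UMI and 12 had between 1 and 19. Among the 18, 3 were higher (Foxp2, Foxp1 and Foxo4), 3 were lower (Foxo6, Foxc2 and Foxl2) and 12 lay between. Over all 15609 genes measured in the dermis, 10.9% were higher and 5.64% lower by the same rule. The median log2 ratio was 0.17 over the 18 members and 0.03 over all genes. With 18 members these counts say little of the family as a whole, and its members are described one by one.

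**Figure D1:**
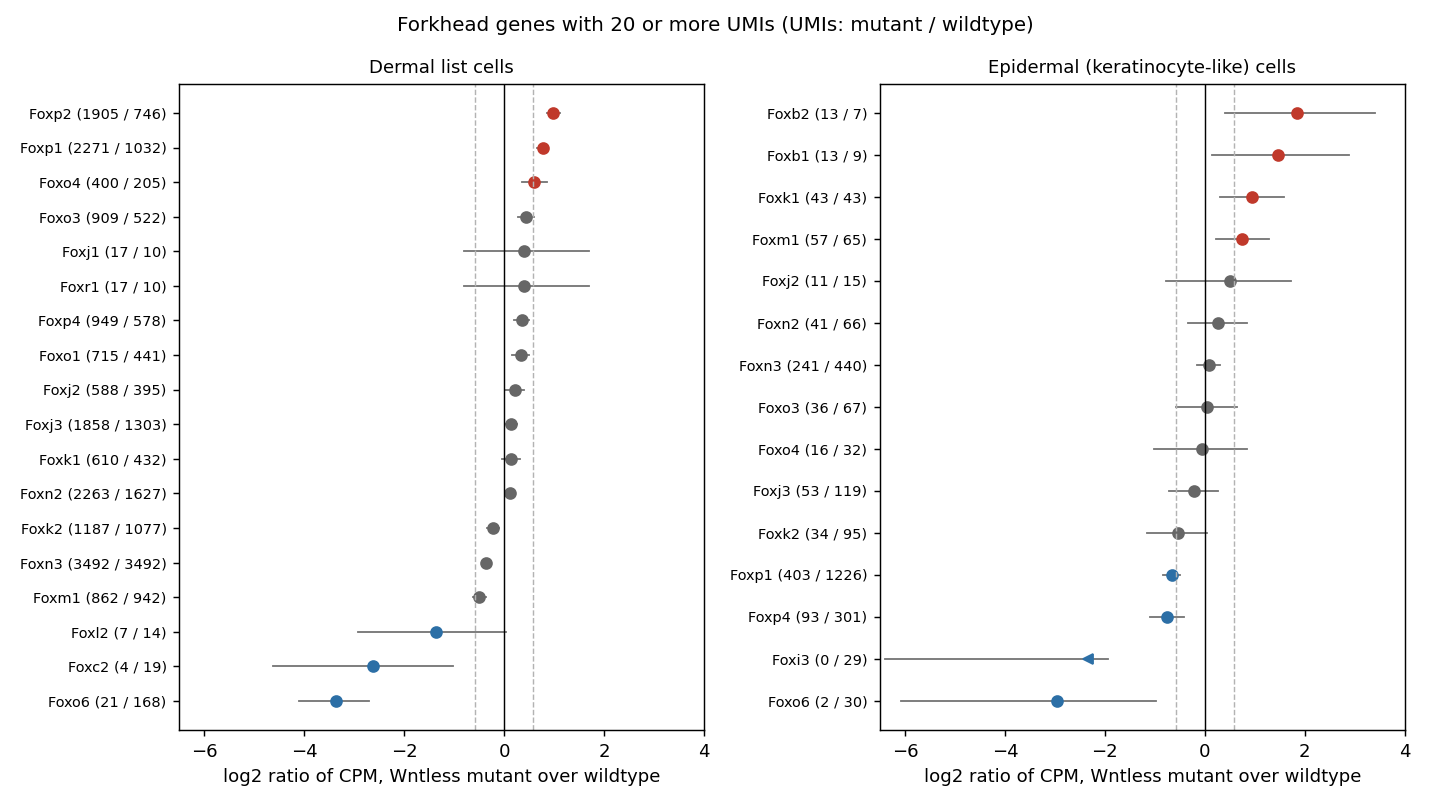
Log2 ratios of CPM, mutant over wildtype, of each forkhead gene with 20 or more UMIs in dermal cells (left) and epidermal cells (right), with 95% intervals and dashed lines at 1.5-fold. Foxp2, Foxp1 and Foxo4 lie right of the upper line in the dermis, Foxo6 lies lowest there at -3.37, and Foxp1 and Foxp4 lie left of the lower line in the epidermis. The arrowhead at Foxi3 marks a bound.

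Foxp2, a repressor best known from brain and lung, had 1905 UMIs (23.5 CPM) in mutant and 746 UMIs (11.9 CPM) in wildtype dermal cells. Its level was 1.98-fold higher in the mutant, a log2 ratio of 0.98 (0.86 to 1.11). Foxp1, its closest relative by family, had 2271 mutant UMIs (28.0 CPM) and 1032 wildtype UMIs (16.4 CPM), with a log2 ratio of 0.77 (0.66 to 0.88). The difference was also seen in the number of cells. With every dermal cell thinned to 9000 UMIs, which left out 367 mutant and 1300 wildtype cells, 19.1% of mutant and 11.9% of wildtype cells had a Foxp1 UMI, against 27.8% and 14.55% before thinning. For Foxp2 the thinned shares were 16.8% in the mutant and 9.55% in the wildtype, against 25.7% and 11.6% before thinning. Erythroid-like cells, which should lack both, had at the same depth 0 of 1005 mutant cells and 1 of 230 wildtype cells with Foxp1, and 1 mutant and 0 wildtype cells with Foxp2. Foxp4, the remaining FOXP member of the dermis, had 11.7 CPM in mutant against 9.19 CPM in wildtype cells. Its log2 ratio of 0.35 (0.20 to 0.50) stayed under 1.5-fold over the whole dermis but not in every cluster. Foxp3, the regulatory T cell factor, had 0 mutant and 2 wildtype UMIs in the dermis.

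The Foxp2 and Foxp1 differences were not equally large in all dermal clusters. Clusters 0 (led by Rspo1 and Igfbp5), 1 (histone genes of S phase), 3 (Mfap5), 4 (Aspn), 7 (G2 and M phase genes) and 12 (Ly6a) each held 50 or more dermal cells of both genotypes. Foxp2 had log2 ratios of 1.86, 1.15, 1.11 and 1.31 in clusters 0, 1, 4 and 7, but 0.11 (-0.25 to 0.47) in cluster 3 and -0.14 (-1.17 to 0.89) in cluster 12. In cluster 0 its level was 27.3 CPM in mutant cells and 7.53 CPM in wildtype cells, and in cluster 3 it was 14.2 CPM in mutant against 13.2 CPM in wildtype cells. Foxp1 was above 0 in each of these clusters, with log2 ratios of 1.14, 0.71, 0.27, 0.52, 0.56 and 0.60 in the order given. Cluster 3, where Foxp1 stood at 58.9 CPM in mutant cells and 48.8 CPM in wildtype cells, had the smallest ratio of both genes among clusters 0, 1, 3, 4 and 7. Foxp4 passed 1.5-fold in clusters 0, 1 and 7, with log2 ratios of 0.70 (0.27 to 1.15), 0.71 (0.41 to 1.01) and 0.72 (0.34 to 1.10). In clusters 3, 4 and 12 its log2 ratios were 0.27, 0.26 and 0.01. Without the cells of cluster 5, the log2 ratios over the dermis were 1.09 for Foxp2 and 0.62 for Foxp1. In the dermal cells outside cluster 5, 2 of 17 measured members were higher and 3 were lower (Foxo6, Foxm1 and Foxl2), where 9.57% and 5.12% of all genes were.

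**Figure D2:**
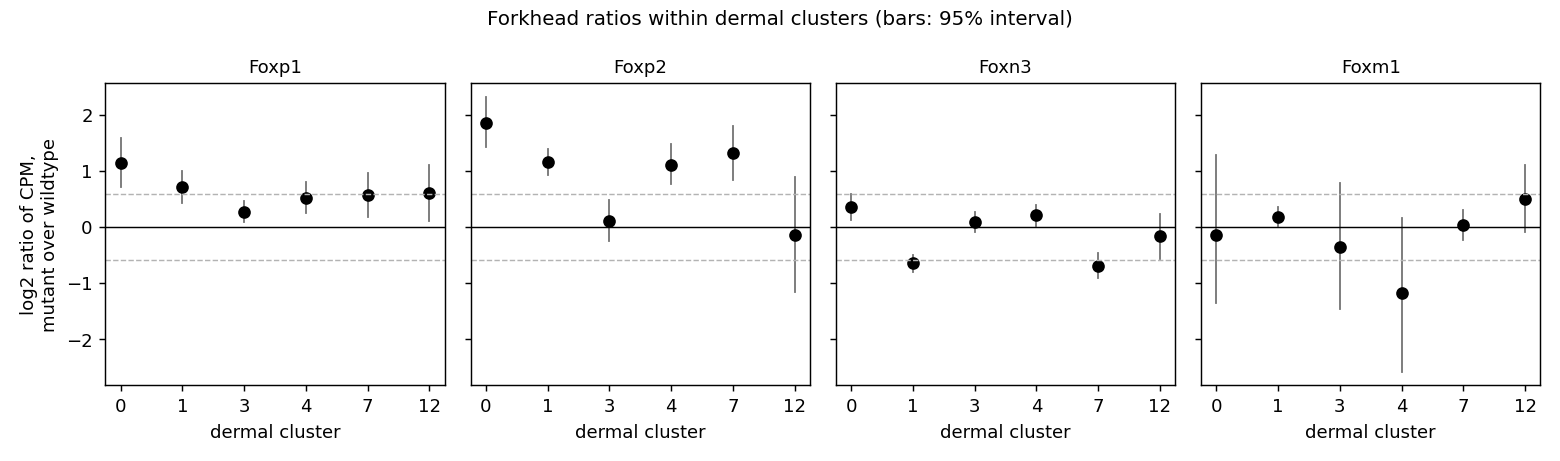
Log2 ratios of CPM, mutant over wildtype, within 6 dermal clusters for Foxp1, Foxp2, Foxn3 and Foxm1, with 95% intervals and dashed lines at 1.5-fold. Foxp2 is near 1 or above in clusters 0, 1, 4 and 7 and near 0 in clusters 3 and 12, and Foxn3 is lowest in clusters 1 and 7.

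Foxp1 spans chromosome 6, 98925338 to 99522721, on the minus strand, and Foxp2 chromosome 6, 14901349 to 15441977, on the plus strand (GRCm38, GENCODE M21). RefSeq promoter windows, from 250 bases before to 50 bases after a transcript start, were held for 27 of the 43 members (32 windows). The core of TCF/LEF sites, CTTTGA read on both strands, is the motif through which Wnt signalling acts on DNA. It stood in 16.0% of all 32851 windows and in 2 of the 32 member windows, 1 of Foxa2 and 1 of Foxp1. The forkhead core, TGTTTA read on both strands, stood in 13.4% of all windows and in 5 of the 32 member windows. Those 5 belong to 3 members, Foxa1, Foxp1 and Foxp3. The 9-base GLI site GACCACCCA, read on both strands, stood in 83 windows and in none of a member. All 3 Foxp1 windows held the forkhead core and 1 of them held the TCF/LEF core. The Foxp1 window with the TCF/LEF core (chr6:99266466-99266765, minus strand, RefSeq, GRCm38.p6) is printed 5′ to 3′, with that core, 204 bases before the start, and the 2 forkhead cores in capitals. A match of letters does not show binding.
Foxp1: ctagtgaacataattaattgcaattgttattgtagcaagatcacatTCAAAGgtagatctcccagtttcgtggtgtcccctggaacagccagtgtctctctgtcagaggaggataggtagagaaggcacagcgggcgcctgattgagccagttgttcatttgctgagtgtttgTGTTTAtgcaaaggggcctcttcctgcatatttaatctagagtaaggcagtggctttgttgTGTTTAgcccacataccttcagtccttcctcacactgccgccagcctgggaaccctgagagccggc

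Foxo6 was the member with the largest difference among the measured ones of the dermis. This FOXO factor, described mainly in brain and liver, had 21 UMIs (0.259 CPM) in mutant and 168 UMIs (2.67 CPM) in wildtype dermal cells. It was 10.3-fold lower in the mutant, a log2 ratio of -3.37 (-4.10 to -2.71). At 9000 UMIs a cell, 0.236% (0.118 to 0.422) of mutant and 2.17% (1.75 to 2.68) of wildtype dermal cells had a Foxo6 UMI, against 0.418% and 3.00% before thinning, and none of 1005 mutant and 230 wildtype erythroid-like cells had one. In wildtype dermis 82 of the 168 UMIs lay in cluster 5, at 6.15 CPM. Without that cluster Foxo6 had 21 mutant and 86 wildtype UMIs, 6.71-fold lower in the mutant. In the S phase cluster 1 it had 3 UMIs in the mutant and 48 in the wildtype. In the G2 and M phase cluster 7 it had 0 and 21 UMIs. With 0 set to 3 counts over the class it was there 5.0-fold lower in the mutant, a log2 ratio of -2.32 with an upper limit of -1.89. In cluster 3 it had 10 UMIs in each genotype, 0.628 CPM in mutant cells and 1.42 CPM in wildtype cells, a log2 ratio of -1.17 (-2.59 to 0.25). In cluster 0 it had 5 mutant and 1 wildtype UMIs and in cluster 4 it had 3 in each genotype, too few to show a difference. Dermal cells with a UMI of 2 or more of 8 condensate genes (Sox2, Sox18, Gal, Cxcr4, Prdm1, Bmp3, Tbx18 and Hey1) numbered 209 in the mutant and 550 in the wildtype. The mutant ones had a median of 19684 UMIs and Foxp1 at 45.9 CPM, against 11155.5 UMIs and 15.3 CPM in the wildtype ones. Only 1 mutant dermal cell was in cluster 5, and whether the 2 groups of cells match was not tested. In the wildtype Foxo6 was at 10.1 CPM in these condensate-marked cells and at 1.77 CPM in the other dermal cells, a log2 ratio of 2.52 (2.06 to 2.98). It was the only one of 14 measured members that was higher there, where 10.7% of all genes were, and no member was lower, against 9.06% of all genes. Without condensate-marked cells of either genotype, Foxo6 stayed lower in the mutant with a log2 ratio of -2.92. Foxo6 lies on chromosome 4, 120267079 to 120287349, minus strand, and its antisense transcript Foxo6os had no UMI in the dermis or epidermis of either genotype.

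The other measured FOXO genes had log2 ratios above 0 over the dermis as a whole. Foxo4 had 400 UMIs (4.93 CPM) in mutant and 205 UMIs (3.26 CPM) in wildtype dermal cells, a log2 ratio of 0.60 (0.35 to 0.85) at the border of the 1.5-fold rule, and 0.48 without cluster 5. Foxo3 had 11.2 CPM in mutant against 8.30 CPM in wildtype cells, a log2 ratio of 0.43 (0.27 to 0.59). Foxo1 had 8.81 CPM in mutant cells and 7.01 CPM in wildtype cells, a log2 ratio of 0.33 (0.16 to 0.50). Within clusters 0, 1, 3, 4, 7 and 12 the Foxo1 log2 ratios were -0.07, -0.06, 0.31, 0.26, 0.14 and -0.40. Each of these cluster intervals included 0. Of 20 known FOXO target genes, 3 were higher and 3 lower in the dermis, with a median log2 ratio of 0.20, where 10.9% of all genes were higher and 5.64% lower. Klf2, a transcription factor gene, had 61.4 CPM in mutant against 35.7 CPM in wildtype cells, and Bcl2l11, which encodes the death factor BIM, had 19.6 CPM in mutant cells and 11.7 CPM in wildtype cells. Gadd45a, a stress and DNA repair gene, had 6.17 CPM in mutant against 21.3 CPM in wildtype cells, and the repressor gene Bcl6 had 2.92 CPM in mutant cells and 4.91 CPM in wildtype cells. Of 16 PI3K and AKT genes that regulate FOXO proteins, none was higher or lower, with a median of 0.00.

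Foxm1, the activator of mitotic genes, had 862 UMIs (10.6 CPM) in mutant and 942 UMIs (14.98 CPM) in wildtype dermal cells, a log2 ratio of -0.50 (-0.63 to -0.36) that did not reach 1.5-fold. Without cluster 5, where Foxm1 was at 2.10 CPM in the wildtype, it was at 10.6 CPM in mutant against 18.4 CPM in wildtype cells, a log2 ratio of -0.80. Of 20 FOXM1 target genes, 12 were lower and none higher in the dermis, with a median log2 ratio of -0.66, where 10.9% of all dermal genes were higher and 5.64% lower. Ccnb1, the mitotic cyclin B1, had 47.4 CPM in mutant cells and 80.9 CPM in wildtype cells, and Aurka, a mitotic kinase, had 20.9 CPM in mutant against 36.7 CPM in wildtype cells. Fewer mutant cells carried these genes. Cells with a UMI of 5 or more of the 20 targets made up 25.7% (24.4 to 27.0) of mutant and 46.0% (44.4 to 47.5) of wildtype dermal cells thinned to 9000 UMIs, and 28.5% and 42.7% of unthinned cells. The thinned shares leave out 367 mutant and 1300 wildtype cells, so the 2 pairs of shares rest on different cells. Cells with under 5 targets had a lower median depth (14643 UMIs in mutant and 10107 in wildtype cells) than the others (19275 and 13499). Within the cells with 5 or more targets Foxm1 was at 29.6 CPM in mutant cells and 28.2 CPM in wildtype cells, a log2 ratio of 0.07 (-0.07 to 0.21). Within the S phase cluster 1 it was at 38.7 CPM in mutant against 34.1 CPM in wildtype cells, and within cluster 7 at 29.9 CPM in mutant cells and 29.1 CPM in wildtype cells. The log2 ratio was 0.18 (0.01 to 0.36) in cluster 1 and 0.04 (-0.23 to 0.31) in cluster 7. These cells were defined by genes that differ together with Foxm1, so their levels say nothing of where the difference over the dermis lies. In sums over a class, fewer cells with a gene and less RNA per cell cannot be told apart.

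Foxn3, a checkpoint repressor gene, had 3492 UMIs in each genotype, 43.0 CPM in mutant dermal cells and 55.5 CPM in wildtype ones, a log2 ratio of -0.37 (-0.44 to -0.30). The ratio differed between clusters, with log2 ratios of -0.65 in cluster 1 and -0.69 in cluster 7 but 0.36 in cluster 0 and 0.21 in cluster 4. Its wildtype level was 72.4 CPM in cluster 5, which held 965 of its 3492 wildtype UMIs and 1 of its mutant UMIs. How much of the difference over the dermis rests on cluster 5 was not tested. Foxn2 had 27.9 CPM in mutant against 25.9 CPM in wildtype cells. The FOXK genes, which bind many promoters in most cell types, had 7.51 CPM in mutant cells and 6.87 CPM in wildtype cells for Foxk1, and 14.6 CPM in mutant against 17.1 CPM in wildtype cells for Foxk2. Foxj3 had 22.9 CPM in mutant cells and 20.7 CPM in wildtype cells, and Foxj2 had 7.24 CPM in mutant against 6.28 CPM in wildtype cells. The log2 ratios of these 5 genes lay between -0.23 (Foxk2) and 0.21 (Foxj2). Foxj1, the regulator of motile cilia, and Foxr1 each had 17 mutant and 10 wildtype UMIs.

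Several rare members had fewer UMIs in mutant than in wildtype dermal cells. Foxf1, Foxc2 and Foxl1 are neighbours on chromosome 8 (Foxf1 at 121084386 to 121088144, Foxc2 at 121116171 to 121118895 and Foxl1 at 121127940 to 121130644), within 46.3 kb. In the dermis Foxf1 had 0 mutant and 9 wildtype UMIs and Foxl1 also had 0 and 9. With 0 set to 3 counts each was 3.87-fold lower in the mutant, a log2 ratio of -1.95 with an upper limit of -1.35. Foxc2 had 4 mutant and 19 wildtype UMIs, for a log2 ratio of -2.62 (-4.63 to -1.03). Of the 37 wildtype UMIs of the 3 genes, 26 lay in the 550 condensate-marked cells. There Foxl1 had all 9 of its UMIs, Foxf1 8 of 9 and Foxc2 9 of 19. In the mutant none of the 4 UMIs lay in its 209 condensate-marked cells, which may not match the wildtype ones. In the wildtype 2 cells held 2 or more of the 3 genes. With so few UMIs this does not show whether the genes share cells or not. Foxd2 had 1 mutant and 14 wildtype UMIs, a log2 ratio of -4.18 (-9.58 to -1.46), and its divergent antisense neighbour Foxd2os, which is no member, had 1 and 22. Foxl2, best known from ovary and eyelid, had 7 mutant and 14 wildtype UMIs, a log2 ratio of -1.37 (-2.92 to 0.04), and 12 of the wildtype UMIs were in lower dermal cells. Of the others, some higher in the mutant by count, Foxs1 had 3 mutant and 7 wildtype UMIs, Foxd3 3 and 5, Foxa3 5 and 3, Foxe1 1 and 3, and Foxc1 3 and 0. These counts are too small to place the genes beyond which class they were seen in.

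Hedgehog target genes, read beside this group because FOXF and FOXL1 genes respond to Hedgehog signals in the gut, were lower in the mutant dermis in 5 of 7 cases, against 5.64% of all genes. Ptch1, the Hedgehog receptor gene, had 6.17 CPM in mutant cells and 62.5 CPM in wildtype cells, and Gli1, a Hedgehog-induced factor, had 2.41 CPM in mutant against 20.9 CPM in wildtype cells. Whether the forkhead counts depend on them was not tested.

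Dermal cells were then split by counts of 8 upper markers (Lef1, Apcdd1, Axin2, Dkk1, Twist2, Trps1, Crabp1 and Bmp4) and 8 lower markers (Dlk1, Mfap5, Col14a1, Meox2, Gdf10, Tnxb, Dpt and Igfbp4). The split gave 2151 mutant and 3291 wildtype upper cells and 2196 mutant and 1577 wildtype lower cells, with 681 mutant and 432 wildtype cells tied. A difference of 1 marker decided 27.5% of mutant and 17.7% of wildtype cells. Several upper markers are Wnt targets, and whether the upper class holds matching cells in both genotypes was not tested.

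Foxm1 and Foxp4 were higher and Foxp1 was lower in upper than in lower cells of both genotypes. In the mutant 3 of 14 measured members were higher in upper cells (Foxm1, Foxp4 and Foxp2) and 2 were lower (Foxp1 and Foxo6), where 12.2% and 20.6% of all genes were. In the wildtype 3 of 14 were higher (Foxo6, Foxm1 and Foxp4) and 2 were lower (Foxp1 and Foxo4), against 14.7% and 19.4% of all genes. Foxm1 was at 16.5 CPM in upper and 4.51 CPM in lower cells of the mutant, and at 19.9 CPM in upper and 4.55 CPM in lower cells of the wildtype. Foxp4 was at 15.7 CPM in upper and 6.94 CPM in lower cells of the mutant, and at 10.6 CPM in upper and 6.42 CPM in lower cells of the wildtype. Foxp1 was at 17.0 CPM in upper and 42.4 CPM in lower cells of the mutant, and at 10.8 CPM in upper and 30.9 CPM in lower cells of the wildtype, log2 ratios of -1.32 (-1.46 to -1.18) and -1.52 (-1.70 to -1.33).

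Foxp2, Foxn3 and Foxo6 had a different layout in the 2 genotypes. Foxp2 was at 28.6 CPM in upper and 17.3 CPM in lower mutant cells, a log2 ratio of 0.72 (0.57 to 0.87), and at 12.4 CPM in upper and 11.03 CPM in lower wildtype cells, a log2 ratio of 0.17 (-0.07 to 0.42). The mutant log2 ratio was 0.46 when the upper markers were replaced by 6 markers without Wnt target genes. Foxn3 was at 39.6 CPM in upper and 48.0 CPM in lower mutant cells, a log2 ratio of -0.28 (-0.38 to -0.17), and at 62.7 CPM in upper and 45.1 CPM in lower wildtype cells, a log2 ratio of 0.48 (0.36 to 0.60). Foxo6 had 5 UMIs in upper and 15 in lower mutant cells, a log2 ratio of -1.65 (-3.47 to -0.12), and 151 UMIs in upper and 12 in lower wildtype cells, a log2 ratio of 2.42 (1.57 to 3.40). For Foxn3 and Foxo6 the direction thus differed between the 2 libraries. For both the intervals do not meet, but they cover counting error only and not the spread between embryos. Cluster 5, with 1 mutant and 1323 wildtype dermal cells, had Foxn3 at 72.4 CPM and Foxo6 at 6.15 CPM in the wildtype. How far cluster 5 sets the wildtype layout was not tested.

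**Figure D3:**
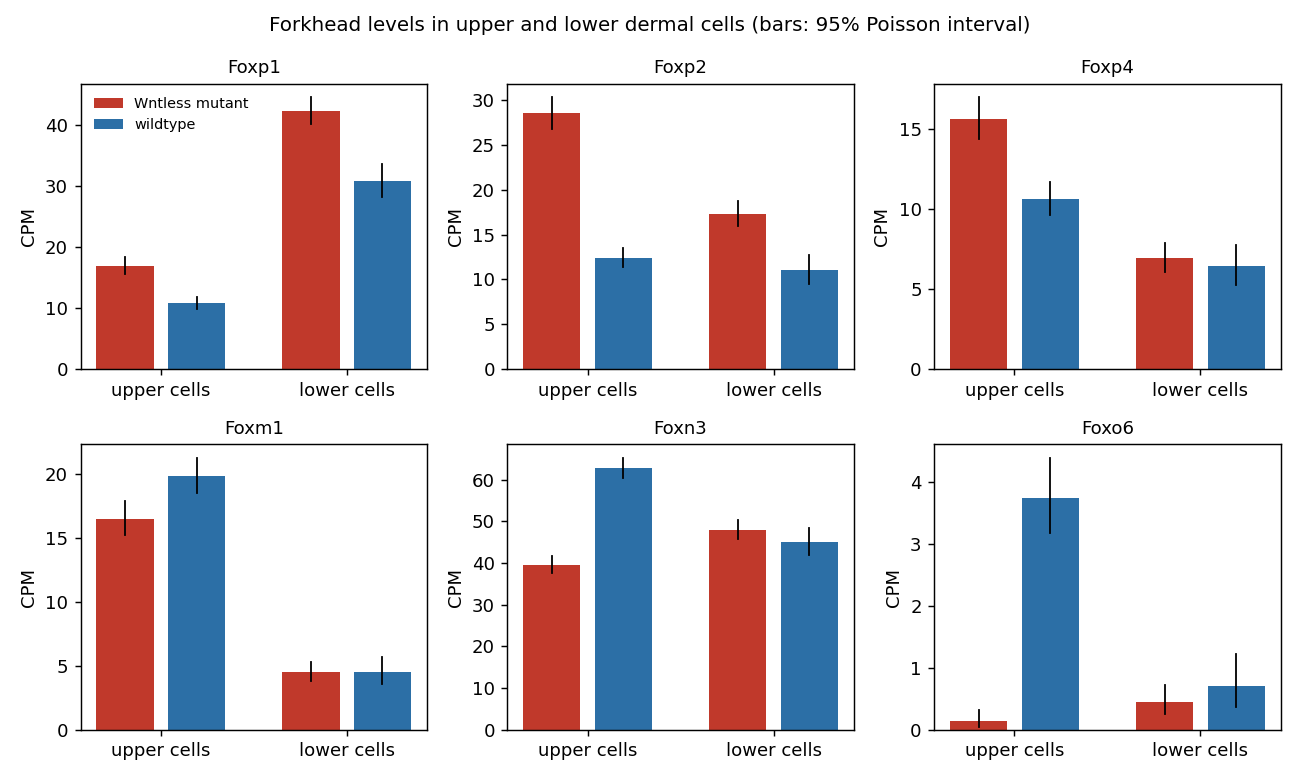
Levels in CPM (bars, with 95% Poisson intervals) of 6 forkhead genes in upper and lower dermal cells, mutant (red) left of wildtype (blue). Foxo6 reaches 3.74 CPM in wildtype upper cells and is under 1 CPM in the other classes shown, Foxn3 is highest there (62.7 CPM), Foxp2 is highest in mutant upper cells (28.6 CPM) and Foxp1 is higher in lower cells of both genotypes.

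Upper and lower cells were also compared between genotypes. In upper cells 3 of 14 measured members were higher in the mutant (Foxp2, Foxo4 and Foxp1) and 2 were lower (Foxo6 and Foxn3), where 8.45% and 7.55% of all genes were. Foxo6 was at 0.140 CPM in mutant and 3.74 CPM in wildtype upper cells, 26.8-fold lower. Foxn3 had in upper cells a log2 ratio of -0.66 (-0.76 to -0.57) and Foxp2 had one of 1.20 (1.04 to 1.36). Foxo4 was at 4.49 CPM in mutant and 2.70 CPM in wildtype upper cells. In lower cells 1 of 14 was higher (Foxp2) and 1 was lower (Foxo6), where 8.01% and 2.87% of all genes were. Foxp2 had there a log2 ratio of 0.65 (0.41 to 0.90), and Foxo6 had 15 mutant and 12 wildtype UMIs, a log2 ratio of -0.67 (-1.87 to 0.55). Foxp1 had a log2 ratio of 0.46 (0.31 to 0.60) in lower cells.

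The epidermis differed from the dermis in which members were lower. Of the 43 genes 15 were measured in epidermal cells, 23 had no UMI and 5 had between 1 and 19. In the mutant 4 were higher (Foxb2, Foxb1, Foxk1 and Foxm1) and 4 were lower (Foxi3, Foxo6, Foxp4 and Foxp1), where 7.74% and 14.9% of 11359 genes were. The median log2 ratio was 0.05 over the 15 members and -0.10 over all genes. Placode cells, epidermal cells with a UMI of 3 or more of 8 placode genes (Dkk4, Shh, Fgf20, Edar, Bmp2, Lhx2, Ltb and Wnt10b), numbered 2 in the mutant and 216 in the wildtype. Comparisons of the other epidermal cells, which had at most 2 of these genes and are called cells outside placodes here, therefore rest on 158 mutant and 273 wildtype cells. Fibroblast markers summed to 1556 CPM in mutant and 1735 CPM in wildtype epidermal cells, against 23960 CPM in mutant and 17368 CPM in wildtype dermal cells. Foxp2, which is present in the dermis, had 0 mutant and 4 wildtype UMIs in the epidermis.

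Foxi3, the placode factor known from hairless dog breeds, had 0 UMIs in mutant and 29 UMIs (3.60 CPM) in wildtype epidermis. With 0 set to 3 counts it was 5.03-fold lower in the mutant, a log2 ratio of -2.33 with an upper limit of -1.94. With epidermal cells thinned to a common depth, which left out 6 mutant and 83 wildtype cells, it was seen in 0 of 154 mutant cells, which allows a share of up to 1.95%, and in 11 of 406 wildtype cells (2.71%), against 0% and 4.50% before thinning. Of the 29 wildtype UMIs, 25 were in placode cells (7.66 CPM) and 4 in the other epidermal cells (0.835 CPM), a log2 ratio of 3.20 (1.66 to 5.18). Among the epidermal cells with at most 2 of the placode genes it had 0 mutant and 4 wildtype UMIs, which is too few for a difference. The gene lies on chromosome 6, 70956531 to 70961066, plus strand. Its RefSeq promoter window (chr6:70956356-70956655, plus strand, GRCm38.p6) is printed 5′ to 3′ because the gene was seen in wildtype placodes and not in the mutant. It has no capitals, since neither core motif searched was in it.
Foxi3: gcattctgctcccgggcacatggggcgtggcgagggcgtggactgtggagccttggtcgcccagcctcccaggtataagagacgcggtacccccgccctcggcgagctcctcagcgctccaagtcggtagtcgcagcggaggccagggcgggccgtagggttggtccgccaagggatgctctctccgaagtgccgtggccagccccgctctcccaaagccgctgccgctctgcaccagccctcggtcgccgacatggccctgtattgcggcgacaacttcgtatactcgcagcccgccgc

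Foxo6 was also a gene of placode cells. It had 2 UMIs (0.477 CPM) in mutant and 30 UMIs (3.72 CPM) in wildtype epidermis, a log2 ratio of -2.96 (-6.07 to -0.99). In the wildtype it was at 6.43 CPM in placode and 1.88 CPM in other epidermal cells, a log2 ratio of 1.78 (0.59 to 3.09). In cells with at most 2 of the placode genes it had 2 mutant and 9 wildtype UMIs. Foxi3 and Foxo6 were seen together in 4 wildtype cells, of 22 with Foxi3 and 30 with Foxo6.

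Foxp1 and Foxp4 were lower in the mutant epidermis as a whole, with smaller differences outside placodes. Foxp1 had 403 mutant UMIs (96.2 CPM) and 1226 wildtype UMIs (152 CPM), a log2 ratio of -0.66 (-0.83 to -0.50), and -0.56 with median-of-ratios scaling, short of 1.5-fold. Foxp4 had 93 mutant UMIs (22.2 CPM) and 301 wildtype UMIs (37.4 CPM), a log2 ratio of -0.75 (-1.10 to -0.41). In the wildtype Foxp1 was at 211 CPM in placode and 112 CPM in other epidermal cells, and Foxp4 at 50.2 CPM in placode and 28.6 CPM in other cells. Outside placodes Foxp1 was at 96.4 CPM in mutant cells and 112 CPM in wildtype cells, a log2 ratio of -0.22 (-0.41 to -0.02), and Foxp4 at 22.3 CPM in mutant against 28.6 CPM in wildtype cells, a log2 ratio of -0.36 (-0.75 to 0.04). Neither was called there. Foxp4 had a log2 ratio of 0.30, of the opposite sign, once cells with a UMI of any placode gene were left out of both genotypes. Between wildtype placode and other epidermal cells, 4 of 12 measured members were higher in placode cells (Foxi3, Foxo6, Foxp1 and Foxp4) and 2 were lower (Foxn2 and Foxk1), where 13.9% and 11.2% of all genes were. Foxn2 was at 4.60 CPM in placode and 10.6 CPM in other cells. Foxk1 had 13 UMIs in placode and 30 in other cells, a log2 ratio of -0.65 (-1.72 to 0.33).

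**Figure D4:**
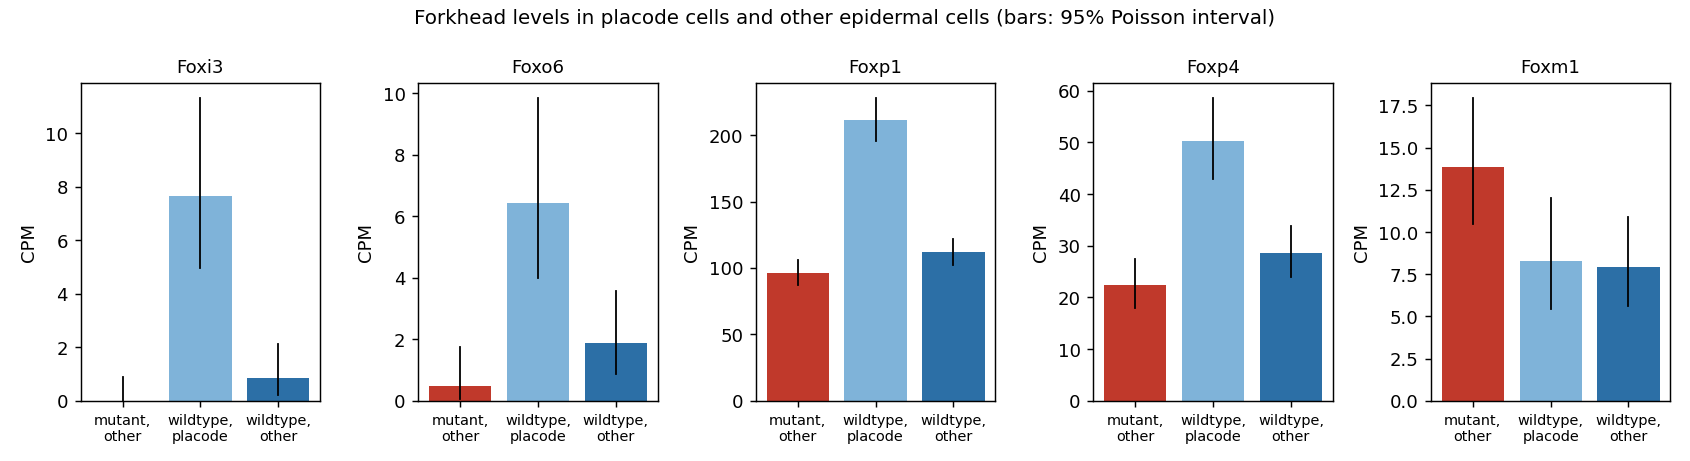
Levels in CPM (bars, with 95% Poisson intervals) of 5 forkhead genes in mutant epidermal cells with at most 2 of 8 placode genes (red), wildtype placode cells (light blue) and wildtype epidermal cells with at most 2 (dark blue). Foxi3, Foxo6, Foxp1 and Foxp4 are highest in wildtype placode cells, and Foxm1 is highest in the mutant at 13.8 CPM.

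The members higher in mutant epidermis were Foxm1, Foxk1, Foxb1 and Foxb2, none with as many UMIs as Foxp1 or Foxp4. Foxm1 had 57 mutant UMIs (13.6 CPM) and 65 wildtype UMIs (8.07 CPM), a log2 ratio of 0.75 (0.21 to 1.29), and 0.80 outside placodes. None of the 20 FOXM1 target genes was called in epidermal cells, and their median log2 ratio was 0.16. Foxk1 had 43 UMIs in each genotype, 10.3 CPM in mutant cells and 5.34 CPM in wildtype cells, a log2 ratio of 0.94 (0.30 to 1.59). Foxb1 and Foxb2, known mainly from the neural tube, had 13 mutant UMIs each and 9 and 7 wildtype UMIs. Foxb1 was seen in 10 mutant and 8 wildtype cells, Foxb2 in 11 mutant and 7 wildtype cells, and no cell had both. The cells are too few to show whether the 2 genes avoid each other. Outside placodes 2 of 10 measured members were higher (Foxm1 and Foxk1) and none lower, where 6.73% and 10.7% of all genes were. Without the cells that had a UMI of any placode gene, the Foxm1 log2 ratio outside placodes was 0.40, under 1.5-fold.

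The remaining epidermal members differed less. Foxn3 had 57.5 CPM in mutant against 54.6 CPM in wildtype cells, and Foxj3 had 12.6 CPM in mutant cells and 14.8 CPM in wildtype cells. Foxk2 had 8.11 CPM in mutant against 11.8 CPM in wildtype cells, a log2 ratio of -0.54 (-1.15 to 0.04). Foxo3 had 8.59 CPM in mutant cells and 8.32 CPM in wildtype cells, and Foxn2 had 9.78 CPM in mutant against 8.19 CPM in wildtype cells. Foxo4 had 16 mutant and 32 wildtype UMIs, Foxj2 11 and 15, and Foxo1 3 and 12. Foxn1, the nude gene of keratinocyte and thymus differentiation, had 1 mutant and 5 wildtype UMIs, too few to compare. Of the FOXO target genes 19 were measured, with 2 higher and 5 lower and a median log2 ratio of 0.02, where 7.74% of all epidermal genes were higher and 14.9% lower. The 2 higher, named after their values were seen, were Klf2 at 6.68 CPM in mutant against 2.48 CPM in wildtype cells and Insr, the insulin receptor gene, with 44 UMIs in each genotype, a log2 ratio of 0.94 (0.31 to 1.58). Of the lower ones, Trib1, a pseudokinase gene, was at 1.19 CPM in mutant against 19.9 CPM in wildtype cells, Bcl2l11 at 4.06 CPM in mutant cells and 14.6 CPM in wildtype cells, and Gadd45a at 6.44 CPM in mutant against 17.0 CPM in wildtype cells. Of 14 measured PI3K and AKT genes, Igf1r, a growth factor receptor gene, was higher at 45.8 CPM in mutant cells and 30.2 CPM in wildtype cells, and none was lower.

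Levels of several members differed between cell classes. The plot of levels by cell class shows the 21 members with 20 or more UMIs in at least 1 of 11 classes.

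**Figure D5:**
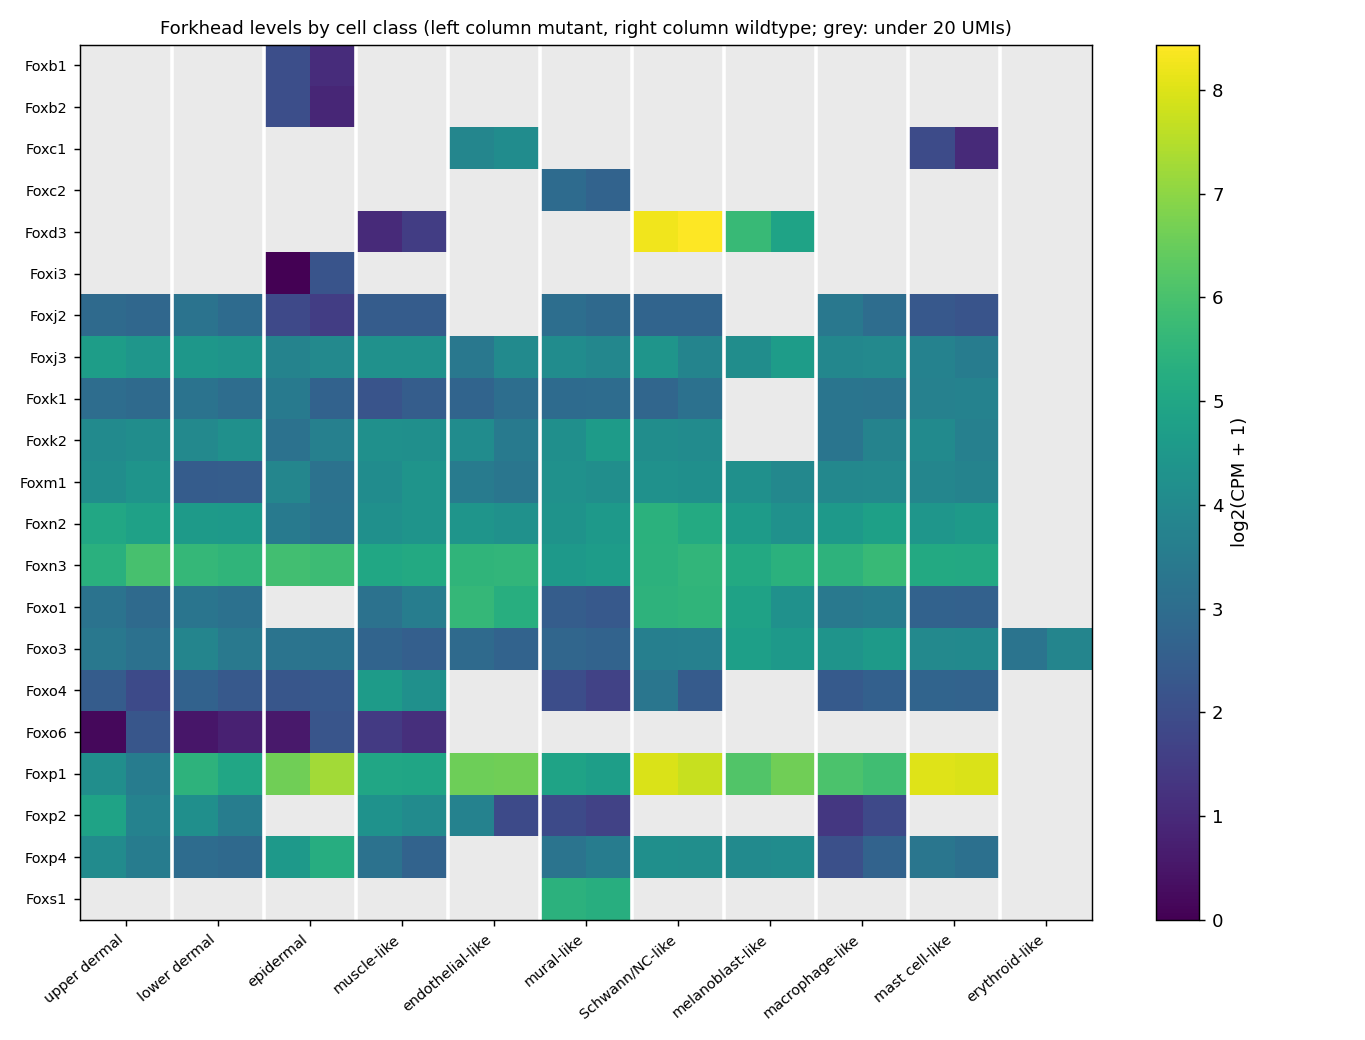
Level, as log2(CPM + 1), of 21 forkhead genes in 11 cell classes, the mutant in the left and the wildtype in the right column of each class; grey marks under 20 UMIs over both. Foxd3 stands out in Schwann and neural crest-like cells, Foxs1 in mural-like cells, Foxc1 in endothelial-like cells and Foxp1 in mast cell-like and Schwann and neural crest-like cells.

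In Schwann and neural crest-like cells (229 mutant and 236 wildtype cells) Foxd3, the neural crest factor, had 1260 mutant UMIs (307 CPM) and 870 wildtype UMIs (346 CPM), a log2 ratio of -0.17 (-0.29 to -0.04). Thinned to the depth used for epidermal cells, which left out 22 mutant and 128 wildtype cells, it was seen in 91.3% of mutant and 93.5% of wildtype cells, against 0.0644% of mutant and 0.0500% of wildtype dermal cells at 9000 UMIs, and before thinning in 95.2% of mutant and 90.7% of wildtype Schwann and neural crest-like cells. Foxp1 was at 246 CPM in mutant against 211 CPM in wildtype cells there, and Foxo1 at 43.2 CPM in mutant cells and 45.3 CPM in wildtype cells. Foxn3 was at 41.5 CPM in mutant against 46.1 CPM in wildtype cells, and Foxn2 at 41.0 CPM in mutant cells and 35.0 CPM in wildtype cells. In these cells 2 of 13 measured members were higher in the mutant (Foxj3 and Foxo4) and none lower, where 8.54% and 4.2% of all genes were. Foxo4 had 37 mutant and 11 wildtype UMIs, a log2 ratio of 1.05 (0.05 to 2.17). Melanoblast-like cells (46 mutant and 35 wildtype), which share the neural crest origin, had Foxd3 at 50.6 CPM in mutant against 28.4 CPM in wildtype cells, from 43 and 14 UMIs. Of their 9 measured members 2 were higher (Foxd3 and Foxo1) and none lower, where 13.5% and 9.52% of all genes were. In these melanoblast-like cells the log2 ratio was 0.83 (-0.07 to 1.82) for Foxd3 and 0.63 (-0.53 to 1.92) for Foxo1. Their Foxp1 was at 70.6 CPM in mutant cells and 97.5 CPM in wildtype cells, Foxo1 at 28.2 CPM in mutant against 18.3 CPM in wildtype cells, Foxo3 at 25.9 CPM in mutant cells and 22.3 CPM in wildtype cells, and Foxn3 at 34.1 CPM in mutant against 40.6 CPM in wildtype cells.

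In mural-like cells, the pericytes and smooth muscle of vessels (223 of each genotype), Foxs1 was at 41.7 CPM in mutant cells and 38.0 CPM in wildtype cells, from 264 and 191 UMIs. The same cells held Foxc2 at 6.64 CPM in mutant against 5.37 CPM in wildtype cells, and few UMIs of Foxf1 (8 mutant and 9 wildtype), Foxl1 (8 and 2) and Foxf2 (3 and 6). None of 15 measured members was higher or lower in the mutant in these cells, where 7.36% and 3.91% of all genes were. Foxf1 and Foxl1, with 0 UMIs in mutant dermal cells, were thus present in mural-like cells of the mutant library. Foxp1, Foxn3, Foxn2 and Foxm1 in mural-like cells had log2 ratios between -0.26 (Foxn2) and 0.16 (Foxp1).

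In endothelial-like cells (97 mutant and 64 wildtype) Foxc1, a vessel and mesenchyme factor, was at 13.7 CPM in mutant cells and 16.2 CPM in wildtype cells, and Foxc2, known from lymphatic vessels, had 13 mutant and 5 wildtype UMIs. Foxo1, a regulator of endothelial growth, was at 48.0 CPM in mutant against 37.9 CPM in wildtype cells. Foxp1 was at 94.6 CPM in mutant cells and 95.7 CPM in wildtype cells, Foxn3 at 45.2 CPM in mutant against 46.0 CPM in wildtype cells, and Foxn2 at 20.2 CPM in mutant cells and 18.1 CPM in wildtype cells. Of 11 measured members 2 were higher in the mutant (Foxk2 and Foxp2) and 1 was lower (Foxj3), where 11% and 5.98% of all genes were. The log2 ratio was 0.69 (-0.33 to 1.82) for Foxk2 and -0.70 (-1.71 to 0.32) for Foxj3, both within counting error of no difference. Foxp2 had 26 mutant and 3 wildtype UMIs, a log2 ratio of 2.18 (0.47 to 4.54).

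In muscle-like cells (477 mutant and 513 wildtype) Foxo4 was at 23.6 CPM in mutant against 17.7 CPM in wildtype cells, a log2 ratio of 0.42 (0.13 to 0.70), above its level in the dermis in both genotypes. Foxp2 was at 18.8 CPM in mutant cells and 15.9 CPM in wildtype cells in muscle-like cells, a log2 ratio of 0.24 (-0.07 to 0.55). Foxp1 was at 30.6 CPM in mutant against 30.4 CPM in wildtype cells, Foxn3 at 31.6 CPM in mutant cells and 34.3 CPM in wildtype cells, and Foxj3 at 18.1 CPM in mutant against 18.3 CPM in wildtype cells. None of 15 measured members was higher and 1 was lower (Foxd3, 12 mutant and 17 wildtype UMIs), where 4.09% and 5.56% of all genes were. The log2 ratio of Foxd3 was -0.89 (-2.09 to 0.26).

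Foxp1 differed by less than 1.5-fold in the blood-derived cells that had it. In mast cell-like cells (233 mutant and 157 wildtype) Foxp1 was at 258 CPM in mutant cells and 249 CPM in wildtype cells, a log2 ratio of 0.05 (-0.06 to 0.16). In macrophage-like cells (401 mutant and 338 wildtype) it was at 65.6 CPM in mutant against 56.8 CPM in wildtype cells, a log2 ratio of 0.21 (0.02 to 0.40). In mast cell-like cells 1 of 13 members was higher in the mutant (Foxc1, 24 mutant and 4 wildtype UMIs) and none lower, where 8.38% and 3.73% of all genes were. The log2 ratio of Foxc1 was 1.43 (-0.11 to 3.42). In macrophage-like cells none of 13 was higher and 2 were lower (Foxp4 and Foxp2), where 4.69% and 11.4% of all genes were. Foxp4 had 33 UMIs in each genotype, a log2 ratio of -0.77 (-1.51 to -0.03). Foxp2 had 16 in each, a log2 ratio of -0.77 (-1.86 to 0.33). Foxh1, a partner of SMAD proteins in the early embryo, had 7 mutant and 3 wildtype UMIs in mast cell-like cells, which was all it had in the libraries.

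In erythroid-like cells (1311 mutant and 594 wildtype) Foxo3, which acts in red cell maturation, had 132 of 157 forkhead UMIs in the mutant and 62 of 74 in the wildtype, counts not scaled for gene length. Its level there was 8.39 CPM in mutant cells and 13.2 CPM in wildtype cells, a log2 ratio of -0.66 (-1.10 to -0.20), in a class where 40.1% of all measured genes were lower by the rule and 4.94% higher. It was the only measured member there. Primitive erythroid-like cells had 11 mutant and 3 wildtype Foxo3 UMIs.

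Fibroblast cells that clustered with the dermis but were off the authors' lists (543 mutant and 406 wildtype cells with 1000 or more genes) gave other cells of the same libraries. Foxp2 was at 17.8 CPM in mutant against 8.23 CPM in wildtype cells there, a log2 ratio of 1.11 (0.68 to 1.56), and Foxo6 had 1 mutant and 9 wildtype UMIs. Foxp1 was at 38.0 CPM in mutant cells and 30.6 CPM in wildtype cells, a log2 ratio of 0.31 (0.07 to 0.56), under 1.5-fold. Of 15 measured members 2 were higher (Foxp2 and Foxo3) and 1 was lower (Foxd3, 36 mutant and 43 wildtype UMIs), where 7.03% and 4.45% of all genes were. Foxd3, high in Schwann and neural crest-like cells, had 3 mutant and 5 wildtype UMIs in all listed dermal cells. Whether neural crest-like cells or doublets are among the off-list cells was not tested.

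Of the 43 members 13 overlap another counted gene in the annotation, and how the counting used strand is not given in the sources used here. Overlapping genes on the same strand had few UMIs beside Foxm1 (Tex52, 11 mutant and 24 wildtype UMIs in the dermis), Foxp1 (Gm20705, 6 and 2) and Foxn3 (Gm20682, 40 and 37). Foxp3, with 0 and 2 UMIs there, overlaps Flicr on the same strand (61 and 23). On the opposite strand it overlaps Ccdc22 (941 and 826) and Ppp1r3f (139 and 91), so the counts of Foxp3 are less certain. Foxj2 and Foxj3 overlap antisense genes with 151 mutant and 166 wildtype (Gm26826) and 208 mutant and 115 wildtype (Frg2f1) UMIs in the dermis, so their counts are less certain too.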

How the data were processed

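Skin cells of 1 Wntless mutant and 1 wildtype library were counted. The deposited matrices hold UMI counts as whole numbers per gene and barcode, and per the file headers Cell Ranger 6.1.2 wrote them. The submitters' processing notes name mm10 and Seurat. The authors also deposited dermal barcode lists; how they were drawn up is not given in the sources used here. The members, lists and classes were chosen with earlier results of these data known. All barcodes were clustered jointly in scanpy 1.11.5 (2000 variable genes without forkhead genes, 30 components, 15 neighbours, Leiden resolution 0.5 with leidenalg 0.10.2), without batch correction. Clusters were named from marker lists, at least 3 markers among the 50 top genes; clusters of low depth or high mitochondrial content stayed unnamed, and names rebuilt this way may differ from the authors'. Scrublet called 206 of 7443 mutant barcodes (2.77%) and 251 of 7787 wildtype barcodes (3.22%) with 1000 or more genes as doublets; calls stayed in, and an alternative left out the top 8% of scores.

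Counts were summed per class and library. Levels have exact Poisson intervals, ratios (mutant over wildtype) exact conditional binomial intervals and shares exact Clopper-Pearson intervals, all at 95%; a share of 0 allows up to 3 counts of the total. Where a class had no count of a gene, 3 counts over the class stood in. The fold is then a bound that takes the other count as exact, and the limit given beside it adds counting error. The libraries held 159841679 mutant and 112593376 wildtype UMIs. The ratio and its interval were tested on simulated counts drawn with counting error only, as the interval assumes. Spread between cells, embryos or libraries was not part of that test. Members named with values had 50 or more UMIs over both libraries in the dermis or epidermis, or were among the up to 5 of highest CPM in another class; rarer members are given by UMI counts. Genes of the lists were named by size of log2 ratio, up to 4 each, from those with at least 50 UMIs. Rarer members picked out beyond this, such as Foxf1, Foxl1 and Foxd2, were chosen after their values were seen, as were the clusters, the split by FOXM1 targets and the removal of cluster 5. Positions are 1-based, from GENCODE M21, which held all 43 members. Python 3.11.15, numpy 2.4.6, scipy 1.17.1 and pandas 2.3.3 were used.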

Additional observations from a re-analysis of the deposited data

Results flagged for a closer look

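Foxp1, Foxp4 and Foxm1 had log2 ratios, mutant over wildtype, of opposite sign in dermis and epidermis, which came to notice because the 2 tissues moved apart. For Foxp1 the ratio was 0.77 in dermal and -0.66 in epidermal cells, a difference of 1.43. For Foxp4 it was 0.35 in dermal and -0.75 in epidermal cells, a difference of 1.10. For Foxm1 it was -0.50 in dermal and 0.75 in epidermal cells, a difference of -1.25. The epidermal ratios are over all epidermal cells, of which 2 mutant and 216 wildtype cells were placode cells. Outside placodes Foxp1 was at 96.4 CPM in mutant and 112 CPM in wildtype cells, and Foxp4 at 22.3 and 28.6 CPM, both under 1.5-fold. Foxm1 was there at 13.8 CPM in mutant and 7.93 CPM in wildtype cells. How far the mix of cells sets the epidermal ratios was not tested. None of the differences between the tissues was tested either, since each genotype has 1 library.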

How the results depend on the processing

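With 1 library a genotype, no replicate could be left out. No paired analysis was possible because each genotype has 1 library. In the dermis the 3 members higher became 0 at a 2-fold rule, and the 3 lower became 1 at 50 UMIs, 5 at 10 UMIs, 1 without condensate-marked cells and 5 with fibroblast clusters in place of the lists. In the epidermis the 4 higher became 2 with 1000 genes and under 5% mitochondrial UMIs, 2 at 50 UMIs and 2 at 2-fold, and the 4 lower became 2 at 50 UMIs and 2 at 2-fold. Outside placodes the 2 higher became 1 with means over cells, 1 without the top 8% of doublet scores, 1 without cells with any placode gene, 4 at 10 UMIs and 0 at 2-fold, and the 0 lower became 2 at 10 UMIs and 1 without cells with any placode gene. In mutant upper against lower cells the 2 lower became 1 with cells 2 markers apart, without condensate-marked cells, at 50 UMIs and after thinning to 9000 UMIs, and in the wildtype the 2 lower became 1 without Wnt targets among the markers, without the top 8% of doublet scores and at 2-fold. Of single members, Foxo4 turned to -0.082 within cluster 7 and Foxp2 to -0.14 within cluster 12, both chosen after seeing the data; the cause was not tested. Without cluster 5, 2 members were higher and 3 lower in the dermis. Of the other values of single members, 418 stayed within the counting interval of the reported value and 78 moved outside it, among them uncalled members whose sign changed, most of them within single clusters. Depth limits the rare members most, since a class at 0 is set to 3 counts.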
